A study of Mus musculus with 2 samples.

Results

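Control cluster 2 is a group of stromal cells in organoids grown from mouse salivary glands, known by the markers Spp1, Cxcl13, Saa3, Ptn and Grem1, which the authors' deposited table lists as higher there. Its genes were taken as every entry that the table of the control library gives for cluster 2. They number 391 of the 4419 genes that the table lists for any of its 15 clusters, with 248 listed higher and 143 listed lower than in all other control cells. Cluster 2 held 13.9% of the control cells, or about 700 of the 5023 cells captured.

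The organoid stroma came from salivary glands of CD-1 mice, an outbred stock. The glands were taken at embryonic day 16, and the age label adds 7 to that day without giving a unit. Control organoids gave 1 library, made without FGF2, and organoids that received the growth factor FGF2 gave the other, with 10107 cells captured. Strain, tissue, age and the 3' droplet protocol of the 10x Chromium system were the same for both, while nothing used here states the dose of FGF2, its timing or the number of animals pooled. The values are the authors' listed shares of cells with a count and their ratios of averages, cluster over other cells. The ratios were read as having an offset of 1 added to both averages, a size that was assumed. Such an offset shrinks the ratios of genes with low counts. Depth per cell is unknown. With 1 library per group no difference has a replicate check, and because the cells were clustered on these same genes, cluster 2 against the other cells is a description and not a test.

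Stromal fibroblasts of the salivary gland make collagen and proteoglycan matrix and send growth factors to the epithelium, and their contractile form, the myofibroblast, builds actin stress fibres. Osteopontin, the product of Spp1, is a secreted phosphoprotein of bone and inflamed tissue that binds integrins and CD44. Cxcl13 encodes the chemokine that draws B cells into lymphoid follicles, where stromal cells make it. Saa3 encodes a serum amyloid A protein of the acute phase response. Ptn encodes pleiotrophin, a heparin-binding growth factor, and Grem1 encodes gremlin 1, a secreted antagonist of bone morphogenetic proteins (BMPs).

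The 250 bases upstream of the RefSeq start of the first 3 marker genes are shown to place the genes and to give the control regions of the highest-ranked members, read 5' to 3' on the strand of the gene from build GRCm38.p6. Capitals mark matches to the letters of the C/EBP motif TTGCNNAA and of the TATA box, TATAAA, both searched on both strands. The stretches are chr5:104434861-104435110 on the plus strand for Spp1, chr5:95956689-95956938 on the plus strand for Cxcl13 and chr7:46715677-46715926 on the minus strand for Saa3. The Saa3 start in the RefSeq promoter set lies inside the gene span that RefSeq gives, so it is the start of a transcript and not the end of that span.
Spp1: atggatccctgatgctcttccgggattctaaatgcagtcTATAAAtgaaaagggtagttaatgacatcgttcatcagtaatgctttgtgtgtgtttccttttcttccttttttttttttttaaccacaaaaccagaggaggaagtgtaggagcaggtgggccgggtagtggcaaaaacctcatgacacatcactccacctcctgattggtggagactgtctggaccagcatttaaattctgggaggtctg
Cxcl13: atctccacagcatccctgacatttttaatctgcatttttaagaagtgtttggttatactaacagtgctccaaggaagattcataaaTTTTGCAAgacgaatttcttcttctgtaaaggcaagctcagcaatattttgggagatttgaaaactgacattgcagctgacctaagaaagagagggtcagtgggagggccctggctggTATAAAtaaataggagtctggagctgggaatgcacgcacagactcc
Saa3: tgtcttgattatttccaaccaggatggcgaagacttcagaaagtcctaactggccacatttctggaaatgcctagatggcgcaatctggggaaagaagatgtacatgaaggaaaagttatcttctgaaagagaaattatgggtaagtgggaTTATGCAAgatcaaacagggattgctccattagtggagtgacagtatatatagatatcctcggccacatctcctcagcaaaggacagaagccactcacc
C/EBP factors are transcription factors of acute phase genes, and Cebpb and Cebpd were both listed higher in cluster 2. Cluster 1 lists Saa3 higher and neither of these factor genes, and cluster 3 lists Cebpd higher and Saa3 lower. Whether the factors act on any gene of cluster 2 was not tested. The C/EBP motif began at -164 from the start of Cxcl13 and at -99 from that of Saa3, and did not occur in the stretch of Spp1. A match to the letters TATAAA began at -211 for Spp1 and at -46 for Cxcl13. Whether either match works as a TATA box was not tested. The windows of 300 bases around the starts of Ptn and Grem1 held neither motif. Among the genes listed higher, 19 of the 170 with a promoter in the RefSeq set held the C/EBP motif (11.2%), against 11 of 102 genes listed lower (10.8%) and 10.8% of the first promoters of all 27025 genes. The letters TATAAA were in 17.1%, 13.7% and 14.2% of the same promoters. The share with the C/EBP motif was thus near that of all promoters for both groups of genes.

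Spp1 had the largest ratio, 4.47 against the other control cells, and lies on chromosome 5 at 104435111 to 104441053 (RefSeq, GRCm38.p6). It was found in 99.3% of the cells of cluster 2 and in 90% of the others, so the listed difference lay in its level and hardly in the number of cells. Relative to the average of the whole library, its level was 3.01 in cluster 2, 2.60 in cluster 12, 2.11 in cluster 6 and 1.42 in cluster 1. It was 0.107 in cluster 5 and 0.0851 in cluster 10. Osteopontin RNA was thus shared by 4 of the clusters that list it and low in the rest. Both clusters 9 and 13 list the epithelial keratin genes Krt8 and Krt18 higher, and cluster 13 has the larger shares of them. A count of Spp1 was still found in 57.0% of the cells of cluster 9 and 61.5% of those of cluster 13, and in cluster 10, which lists Schwann cell genes higher, 70.7%.

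Cxcl13 had a ratio of 3.86, with counts in 56.1% of the cells of cluster 2 against 29.3% of the others. It lies on chromosome 5 at 95956939 to 95961068. Its relative level was 2.76 in cluster 2 and 1.57 in cluster 0, where 45.7% of cells had it. In every other cluster that lists it the gene was below the library average, with 0.386 in cluster 1, 0.247 in cluster 6 and 0.201 in cluster 5. The share in cluster 9 was 14.8%, and cluster 13 does not list the gene. Clusters 2 and 0 therefore stood together for this chemokine gene, and cluster 1 did not join them.

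Saa3 had a ratio of 3.35, with counts in 72.4% of cells against 55.1%, and lies on chromosome 7 at 46711998 to 46719615. Its relative level of 2.52 in cluster 2 was next to 2.48 in cluster 1, where the share was higher still at 80.8%. The other clusters that list it were low, from 0.594 in cluster 4 to 0.102 in cluster 5. In cluster 9 31.0% of cells had a count, and cluster 13 does not list Saa3. Clusters 1 and 2 thus stood nearly level for Saa3, above every other cluster that lists it.

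Ptn had a ratio of 3.21, with counts in 84.3% of cells against 53.0%, and lies on chromosome 6 at 36714924 to 36810179. Relative levels were 2.45 in cluster 2, 1.41 in cluster 0, 1.3 in cluster 10 and 0.333 in cluster 1. The pattern over clusters 2, 0 and 1 was that of Cxcl13. Grem1, on chromosome 2 at 113748675 to 113758648, had a ratio of 2.46 and counts in 61.9% of cells against 30.9%. Because cluster 14 lists it in 0.0% of cells, its averages could be solved without the offset, and the ratio then came to 4.20. Its relative levels were 2.05 in cluster 2, 1.63 in cluster 12, 1.46 in cluster 6 and 0.643 in cluster 0, the order of Spp1 among these clusters. In cluster 6 61.6% of cells had Grem1, nearly the same share as in cluster 2, and in clusters 9 and 13 2.8% and 3.8%.

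**Figure D1:**
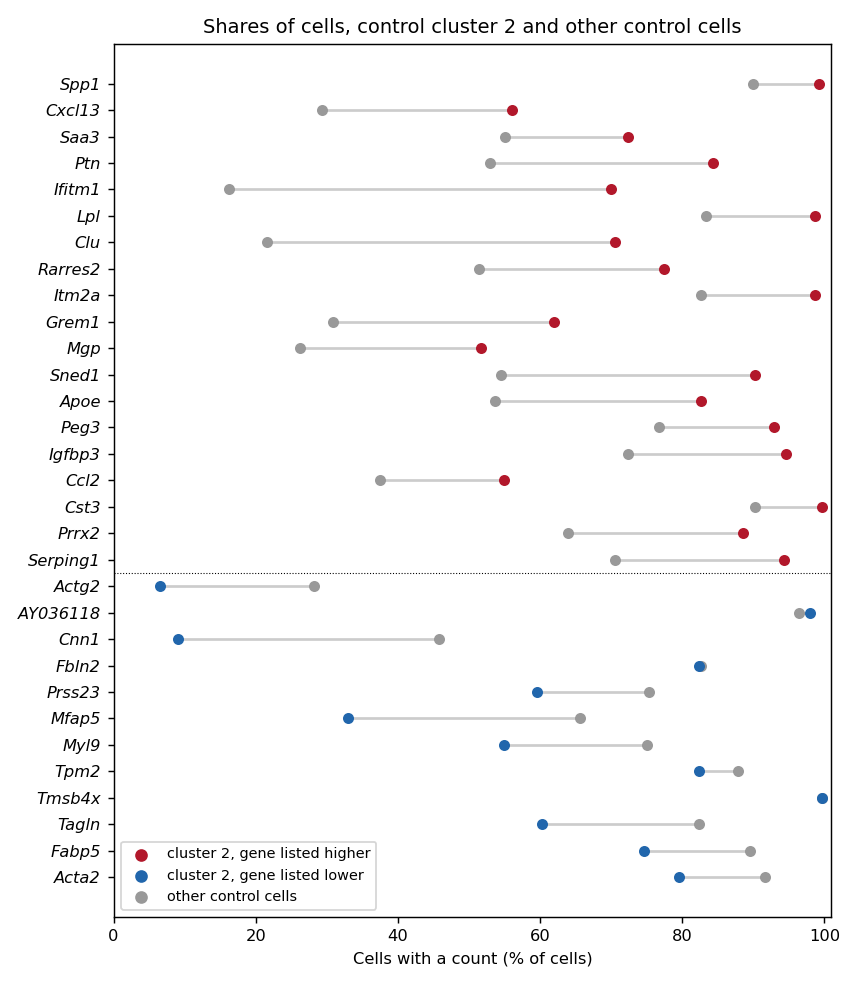
Share of cells with a count (percent of cells, horizontal axis) for 19 of the 20 genes with the largest and for the 12 with the most negative ratio in control cluster 2. Coloured points are cluster 2 and grey points all other control cells, each from 1 library; Ifitm1 (70.0% against 16.3%) and Clu (70.6% against 21.6%) show the widest gaps above the dotted line, and Cnn1 (9.1% against 45.8%) below it.

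The label calls these cells fibroblasts, and the fibroblast markers were present. Pdgfra and Pdgfrb, the receptors for platelet-derived growth factor, were found in 93.3% and 94.4% of the cells of cluster 2, with ratios of 1.40 and 1.5. The proteoglycan genes Dcn and Lum were listed higher too, in 96.9% and 72.7% of cells. Col1a1, Col1a2, Col3a1 and Fn1 were listed lower, although each was in nearly all of the cells. Thy1 and Vim were not listed for cluster 2. Of the other cell types that the stroma could hold, the marker lists of epithelium, endothelium, Schwann cells, neurons, macrophages, pericytes, mast cells and cycling cells had no entry. From the shares over the whole library, at most 9.99% of the cells of cluster 2 could hold the epithelial gene Epcam, 3.57% Cdh1, 4.29% the endothelial gene Pecam1, 5.12% the Schwann cell gene Sox10 and 2.13% the leukocyte gene Ptprc. Limits for some other markers of these cell types were wide and say little or nothing. They were 94.4% for Lyz2, 69.5% for Pf4, 41.8% for Krt7 and 100% for Egfl7 and Gap43. The pericyte limits ran from 51.5% to 100%, the neuron limits from 37.2% to 100% and those of cycling cells from 21.8% to 100%. Markers of neutrophils, lymphocytes, red cells and mesothelium are listed for no control cluster. Lpl, which was on the adipocyte list, was listed higher.

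Of the 19070 genes over which the authors corrected their p-values, 1.3% were listed higher and 0.75% lower in cluster 2. Of the 4419 genes listed for any control cluster these were 5.61% and 3.24%. Past 1.5-fold there were 97 higher and 55 lower genes (0.509% and 0.288% of the 19070), and past 2-fold 20 and 16 (0.105% and 0.0839%). The genes listed higher had a median share of 78.85% in cluster 2 against 63.75% in the other cells, with a median ratio of 1.42, and 71 of them were in at least 90% of the cells. The genes listed lower had medians of 70.7% and 78.1% and a median ratio of 0.70. Most members were thus widely detected on both sides, and the ratios of most were modest. The entries nearest the limit of listing were Cdkn1c (1.28), Gli3 (1.28) and Mdk (1.29).

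Shares and ratios did not always point the same way. Among the 143 genes listed lower, 53 were found in a larger share of cluster 2 than of the other cells. Col1a1, the main chain of type I collagen, was in 100% of the cells of cluster 2 and 91.0% of the others at a ratio of 0.55. Sparc, a collagen-binding matrix protein, was in 100% against 95% at a ratio of 0.67. For such genes a smaller part of the other cells had a count, and their average was still the higher. No gene listed higher had a smaller share in cluster 2. Clusters 4, 9, 11 and 14, which belong to the other cells, list their genes at median shares of 10.9%, 7.0%, 30.2% and 26.7%, and the part these clusters have in the comparison was not tested.

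Of the other genes with large ratios, 5 stood above the marker Grem1 with the offset in place, namely Ifitm1, Lpl, Clu, Rarres2 and Itm2a. Without the offset Grem1 came to 4.20, and the ratio was at most 2.98 for Lpl, 3.09 for Itm2a and 4.03 for Rarres2. For Ifitm1 and Clu it could reach 12.8 and 5.44, so their order against Grem1 is not known. Ifitm1, an interferon-induced membrane protein, had a ratio of 3.08 and the widest gap in shares. Lpl (2.65), the lipase of triglyceride-rich lipoproteins, was in 98.7% of the cells. Clu (2.5) encodes clusterin, an extracellular chaperone, and Rarres2 (2.49) the chemoattractant chemerin. The ratio was 2.47 for Itm2a, an integral membrane protein, 2.37 for Mgp, the matrix Gla protein that inhibits calcification, and 2.32 for Sned1, a matrix protein. Apoe, the lipid carrier, had 2.22, the imprinted zinc finger gene Peg3 2.19 and the IGF binding protein gene Igfbp3 2.17. The monocyte chemokine gene Ccl2 had 2.09, the cystatin C gene Cst3 2.07, the mesenchymal homeobox gene Prrx2 2.05 and the C1 inhibitor gene Serping1 2.02. Ifitm1 shares sequence with Ifitm2 and Ifitm3, so reads of these genes may be divided between them.

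The order of clusters differed widely among these leading genes. Mgp was highest in cluster 6, at a relative level of 4.84 against 1.99 in cluster 2. Apoe reached 6.24 in cluster 10 and 5.26 in cluster 11, which lists macrophage genes higher, against 1.90 in cluster 2. Ccl2 reached 10.1 in cluster 12 and 6.84 in cluster 11 against 1.82. These 3 genes were thus far from highest in cluster 2. Igfbp3 was nearly level in clusters 1 and 2, with a gap of 0.01 on the log2 scale.

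Of the 248 genes listed higher, 109 (44.0%) had their largest relative level in cluster 2. The others peaked in cluster 1 (37 genes), cluster 12 (34), cluster 13 (24), cluster 10 (21) or another cluster. Only 17 are listed for no other control cluster, among them Cyp26b1, Mme, Agt, Ndnf, Nr3c1, Zim1 and Lrp6. An unlisted gene may still be expressed in the other clusters, since no entry had a natural log ratio closer to 0 than 0.25, an authors' p-value above 0.01 or a larger share below 25.1%. Of the genes with their largest level in cluster 2, Cxcl13 and Ptn stood 0.81 and 0.80 (log2) above the next cluster that lists them as higher, cluster 0 for both. For other genes no other control cluster is listed higher, and only the distance to the library average can be given, which was 0.97 for Sned1, 0.84 for Prrx2, 0.81 for Igf1 and 0.79 for Olfm1 (log2 of the relative level). Sned1 was in 90.3% of the cells of cluster 2 against 54.5%, and Prrx2 in 88.6% against 63.9%. Igf1, the insulin-like growth factor, was in 58.6% against 38.5% at a ratio of 2.0. Cyp26b1, which degrades retinoic acid, had a ratio of 1.90 and a share of 49.1% against 15.9%. Ifitm2, Cxcl5, Il1r1, Ifitm3, Mgst1, Zfp36l2, Id1 and Hacd2 likewise had no other control cluster listed higher, and stood 0.72 to 0.61 above the library average on the same scale. Clusters that do not list these genes may still lie above the average. Of the genes listed lower, 9 of 143 were lowest in cluster 2, and 44 were lowest in cluster 10.

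**Figure D2:**
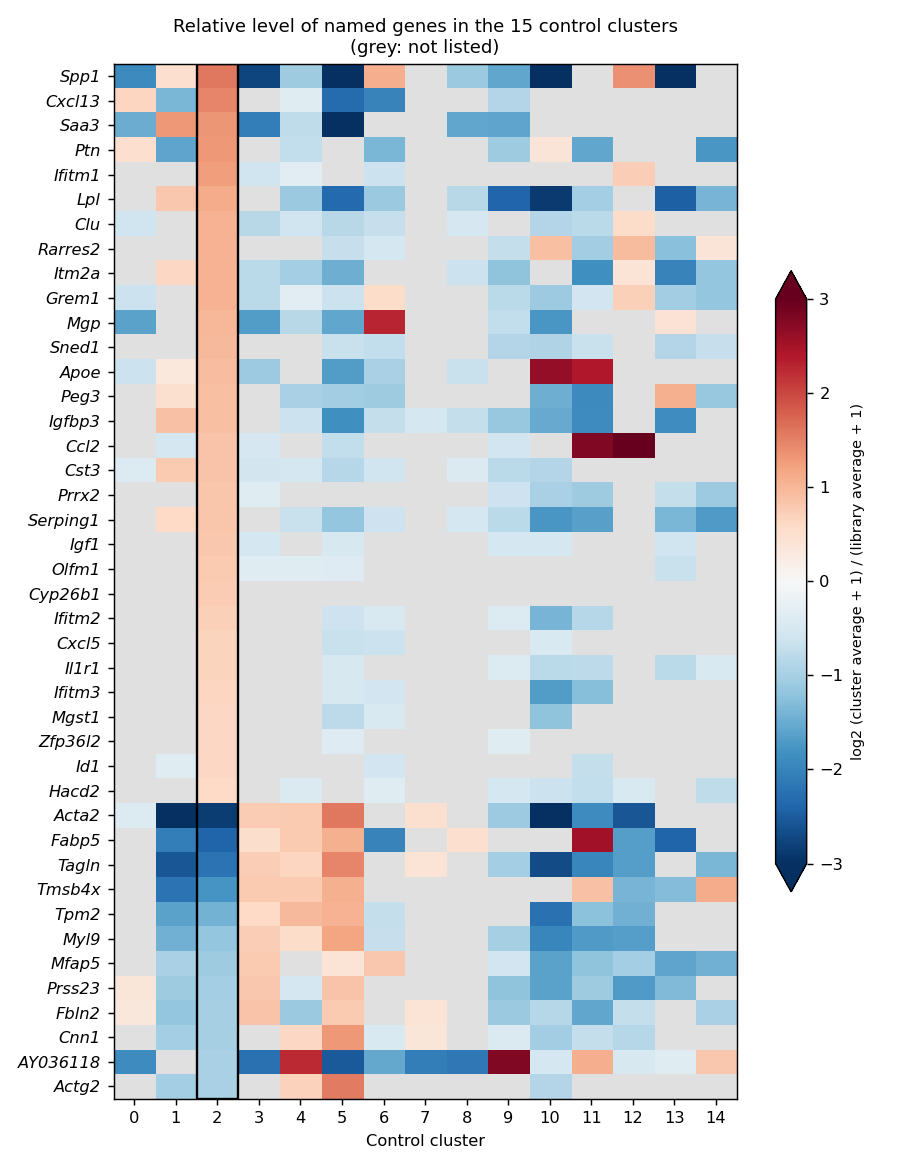
Relative level (colour, log2 of cluster average plus 1 over library average plus 1) of the leading genes, further genes that peak in cluster 2 and the most negative genes of cluster 2 in the 15 control clusters (columns), with grey where a gene is not listed. The boxed column is cluster 2; Spp1, Saa3 and Lpl are also red in cluster 1, Mgp is darkest in cluster 6, and Acta2, Tagln and Myl9 are blue in clusters 1 and 2 and red in cluster 5.

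On the list of innate defence and acute phase proteins, 9 of the 18 genes listed for any control cluster were higher in cluster 2 and 1 was lower. Besides Saa3, Clu and Serping1 they included Colec12 (1.74), a scavenger receptor with a lectin domain, the ceruloplasmin gene Cp (1.69), the complement protease gene C1s1 (1.68), Serpina3n (1.49) and Lbp (1.40), which binds lipopolysaccharide. Serpina3n was in 43.6% of cells against 12.2%. Of the 9 higher genes, 5 had their largest relative level in cluster 2, and cluster 1 lists Colec12, Cp and C1s1 higher too. Ptx3, a long pentraxin, was the member listed lower, at 0.74. C1s1 has a near-identical copy, C1s2, listed at 1.3, and the counting may divide reads between them. Of the interferon response genes 7 of 16 were listed higher and none lower, with Ifitm1, Ifitm2 (1.84) and Ifitm3 (1.70) first. Ifi203 (1.57) and Ifi204 (1.39) belong to a family of similar sequences and are uncertain for that reason. Iigp1, an interferon-induced GTPase, was at 1.35 in 30.3% of cells against 14.1%, and H2-K1, a class I histocompatibility gene, at 1.38.

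Of the chemokine and cytokine genes 4 of 13 were listed, all higher. After Cxcl13 and Ccl2 these were Cxcl5 (1.75), a neutrophil chemoattractant, in 42.1% of cells against 24.5%, and Ccl7 (1.41), in 49.3% against 45.9%. Of 8 listed markers of lymphoid stroma, Cxcl13 was the only entry for cluster 2. Of NF-kappaB feedback and target genes 4 of 13 were listed higher, namely Cebpb (1.63), Sod2 (1.56), Tnfaip2 (1.51) and Cebpd (1.31). None of the 4 had its largest relative level in cluster 2, and cluster 12 lists Cebpb, Sod2 and Tnfaip2 higher too. The interleukin 1 receptor gene Il1r1 had a ratio of 1.74 and a share of 84.1% against 60.6%. Il1rn, the antagonist of that receptor, had 1.93 and a share of 38.0%, and was at 2.19 in cluster 11 against 1.71 in cluster 2 in relative level. Immediate early genes, which respond quickly to stimuli and to tissue dissociation, were listed higher in 8 of 22 cases and lower in none. Egr1 (1.70), Cebpb, Fos (1.58) and Junb (1.53) led them, and Cebpb stands on both lists. Of the 8, 1 had its largest relative level in cluster 2, and cluster 1 lists Egr1 and Fos higher too. The part of the immediate early genes in the other differences was not tested.

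Genes of the actin contractile apparatus were the most uniform list. Of the 24 that are listed for any control cluster, 16 were lower in cluster 2 and none was higher, with 12 past 1.5-fold. The smooth muscle actin gene Acta2 had the most negative ratio of all members, 0.12, and was still found in 79.6% of the cells against 91.6%. Tagln, the transgelin gene, had 0.19 and a share of 60.3% against 82.3%. Tpm2 (0.34), a tropomyosin, Myl9 (0.41), a myosin light chain, and Actg2 (0.47), enteric smooth muscle actin, followed. Cnn1, calponin 1, had 0.47 and was in 9.1% of cells against 45.8%. The share of Acta2 was also 62.7% in cluster 9, which lists epithelial keratin genes higher, and 62.1% in cluster 10, which lists Schwann cell genes higher. How far shares of that size reflect expression by the cells themselves was not tested. Acta2 was at a relative level of 0.138 in cluster 2 and 0.111 in cluster 1, against 3.0 in cluster 5. Of the 7 listed smooth muscle and myofibroblast markers, 6 were lower in cluster 2. Outside the list, the other strongly negative genes were Fabp5 (0.17), a fatty acid binding protein, Tmsb4x (0.26), the actin-sequestering thymosin beta 4, Mfap5 (0.44), Prss23 (0.46), Fbln2 (0.46) and the ribosomal RNA related transcript AY036118 (0.47).

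The matrix genes divided by kind. Of 15 listed fibrillar and associated collagen genes, 6 were lower and 3 higher. Col1a1 (0.55), Col5a2 (0.66), Col8a1 (0.66), Col1a2 (0.68), Col3a1 (0.72) and Col11a1 (0.75) were lower, and the higher ones were the 3 chains of type VI collagen, Col6a1 (1.40), Col6a3 (1.32) and Col6a2 (1.29). Type VI collagen forms beaded filaments around cells. Small leucine-rich and other proteoglycans were listed higher in 5 of 15 cases and lower in none, with Lum (1.68), Dcn (1.61), Aspn (1.6), Vcan (1.37) and Ogn (1.31). Of the elastic fibre genes 5 of 19 were lower, among them Fbln2, Mfap5, Lox (0.62) and Fbn1 (0.64), while Mfap2 (1.62) and Loxl1 (1.42) were higher. Lox and Loxl1, related enzymes that crosslink collagen and elastin, thus lay on opposite sides. Of collagen processing genes 1 of 18 was higher and 3 were lower, and Sparc was the 1 of 16 basement membrane genes listed. Mmp2 (1.82), the gelatinase gene, Serpine2 (1.54) and Adamts1 (1.42) were the higher 3 of 28 protease genes, and Timp3 (0.73) was lower.

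Of the TGF-beta ligands and response genes, 7 of 20 were lower and 2 higher. Thbs1 (0.50), which activates latent TGF-beta, and the CCN matricellular genes Ccn2 (0.52), Ccn4 (0.60), Ccn3 (0.61) and Ccn5 (0.65) were lower, together with Postn (0.61) and Lox. Ccn2 was in 17.1% of cells against 41.1%, and Ccn3 in 9.4% against 36.7%. Tgfbi (1.96), a matrix gene named for its induction by TGF-beta, and the co-receptor gene Tgfbr3 (1.5) were higher. Tgfbi was in 82.0% of cells against 43.1%. Of 8 listed BMP ligands and receptors none is an entry of cluster 2. Of the BMP antagonist genes Grem1 was higher and Fstl1 (0.70) was lower. Id1 (1.68) and Id3 (1.54), transcriptional targets of BMP signalling, were the higher 2 of 5. The antagonist gene Grem1 and these targets of the pathway were thus listed higher in the same cluster.

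Genes of FGF signalling were listed higher in 5 of 16 cases and lower in none. Fgf10 (1.51), a stromal factor required for salivary gland development in mice, was in 56.9% of cells against 37.5%, and Fgf7 (1.39) in 73.6% against 59.8%. The receptor gene Fgfr1 was at 1.35, and the feedback inhibitor genes Spry4 and Spred1 at 1.51 and 1.31. Cluster 1 lists Fgfr1, Spry4 and Spred1 higher too, and Fgf7 lower. Of other paracrine factors 4 of 22 were higher, Igf1, Angptl2 (1.64), Angptl4 (1.61) and the stem cell factor gene Kitl (1.47), and 2 lower, Vegfd (0.50) and the activin subunit gene Inhba (0.62). Among IGF1 and the IGF binding proteins, Igf1 and Igfbp3 were higher and Igfbp2 (0.70) lower, 3 of 10. Sfrp2 (1.55), a secreted Wnt modulator, was the only entry among 11 Wnt genes. Of pleiotrophin, midkine and their receptors 3 of 11 were higher, with the syndecan gene Sdc4 (1.81) and Mdk beside Ptn. Of the osteopontin receptor genes 2 of 9 were listed, Itgav at 1.37 and Itgb1 at 0.76. Of 11 skeletal-type matrix and factor genes, Spp1, Mgp and Ogn were higher and Postn and Sparc lower, and the osteoblast and chondrocyte marker lists had no entry.

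**Figure D3:**
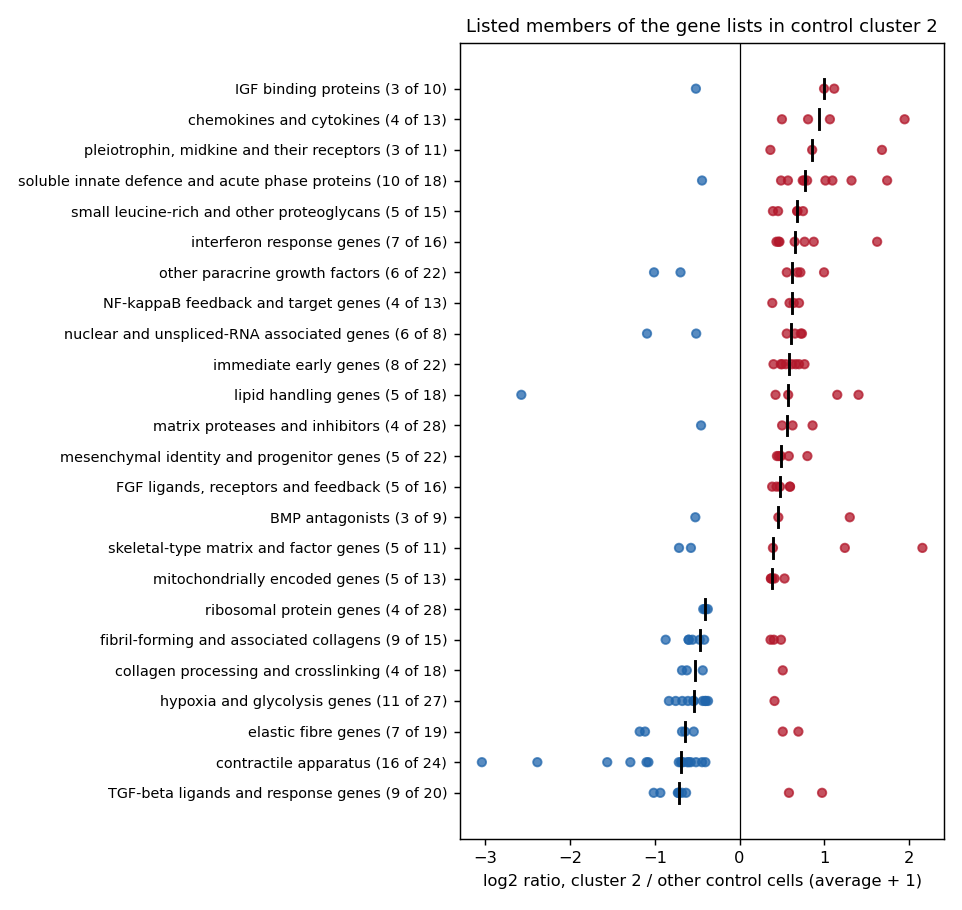
Log2 ratio of cluster 2 over the other control cells (horizontal axis, averages plus 1) for the listed members of each gene list with at least 3 entries, with points for genes and a black bar for the median. In brackets stand the entries of cluster 2 of those listed for any control cluster; all 16 contractile genes and 4 ribosomal protein genes lie left of 0, and all 7 interferon response and 8 immediate early genes lie right of it.

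Of 27 hypoxia and glycolysis genes, 10 were lower and 1 higher. Gapdh (0.56), Ero1l (0.59), Pgk1 (0.63) and Higd1a (0.66) were the most negative, and Ero1l was in 54.3% of cells against 77.4%. Hk2 (1.33) was the exception. Lipid genes were higher in 4 of 18 cases, with Lpl, Apoe, Hmgcs1 (1.49) and Idi1 (1.34), the latter pair of cholesterol synthesis, and lower for Fabp5. Of 22 mesenchymal identity genes S100a4 (1.74), Pdgfrb, Pdgfra, Prrx1 (1.38) and Ly6a (1.36) were higher, and none of these had its largest relative level in cluster 2. Of 19 antioxidant genes Hmox1 (1.69) and Sod2 were higher, and of 37 cell cycle genes Tpx2 (0.77) was the only entry and was lower. Outside that list, the histone gene Hist1h2ap (0.60) was also lower, in 9.7% of cells against 25.3%. The cell division genes Cks2, Smc2 and Ube2s were listed lower as well. Genes that can follow RNA quality were also listed. The mitochondrially encoded genes were higher in 5 of 13 cases (1.29 to 1.44) and ribosomal protein genes lower in 4 of 28. The nuclear transcripts Malat1 (1.67), Xist (1.65), Kcnq1ot1 (1.57) and Neat1 (1.47) were higher, while Gm42418 (0.70) and AY036118 were lower. The part of RNA quality in the differences was not tested. Over all 391 members the median log2 ratio was 0.42. Since no entry lies near 0 and most members were listed higher, this median mainly reflects that majority and is no benchmark for a list.

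Cluster 1 shared the largest number of cluster 2 genes in the same direction. It lists 90 of the 248 higher members as higher (36.3% of them, and 37.7% of its own 239 higher genes) against a background of 5.41% of all genes in the table. Of the 143 lower members 81 were lower there too (56.6%; background 4.16%). Spp1, Saa3, Lpl, Itm2a, Apoe, Peg3, Igfbp3, Cst3 and Serping1 were among the higher 90. In the opposite direction, 10 genes were higher in cluster 2 and lower in cluster 1, namely Cxcl13, Ptn, Ccl2, S100a4, Id1, Ccl7, Fgf7, Ly6a, Cyp1b1 and Emb. This set, which was picked by its pattern, holds 3 of the 4 chemokine genes of cluster 2. Each cluster was compared with all other cells, those of cluster 2 included, so a gene high in cluster 2 is more readily listed lower elsewhere, and these counts are not independent of each other.

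Cluster 12 was next, with 69 higher members higher (27.8%; background 10.8%) and 67 lower members lower (46.9%; background 8.71%). Spp1, Ifitm1, Clu, Rarres2, Itm2a, Grem1 and Ccl2 were among the shared genes, and this cluster held 0.828% of the cells. Cluster 5 was the reverse. It lists 126 of the higher members as lower (50.8%; background 4.68%) and none as higher, and 75 of the lower members as higher (52.4%; background 3.69%). Cluster 3 lists 58 of the higher members lower (23.4%; background 2.1%) and 69 of the lower members higher (48.3%; background 3.24%). The lower members of cluster 2 thus included many of the genes that clusters 3 and 5 list as higher. Cluster 4 lists 104 higher members lower (background 9.01%) and 1 higher (background 2.63%). In cluster 6, 12 higher members were higher (background 3.24%) and 60 lower (background 3.44%). These 12 were Spp1, Grem1, Mgp, Serpine2, Sparcl1, Pdgfrb, Cdkn2b, Loxl1, Col6a1, Col6a3, Emp1 and Col6a2, with all 3 chains of type VI collagen. Cluster 0 lists 5 as higher (background 1.24%), which were Cxcl13, Ptn, Plpp3, Ogn and Cdkn1c, and 20 as lower (background 1.38%). The marker genes of cluster 2 were thus spread over several patterns. Cxcl13 and Ptn were shared with cluster 0, Spp1 and Grem1 with clusters 6 and 12, and Spp1 and Saa3 with cluster 1. Ptn is also listed higher in cluster 10.

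**Figure D4:**
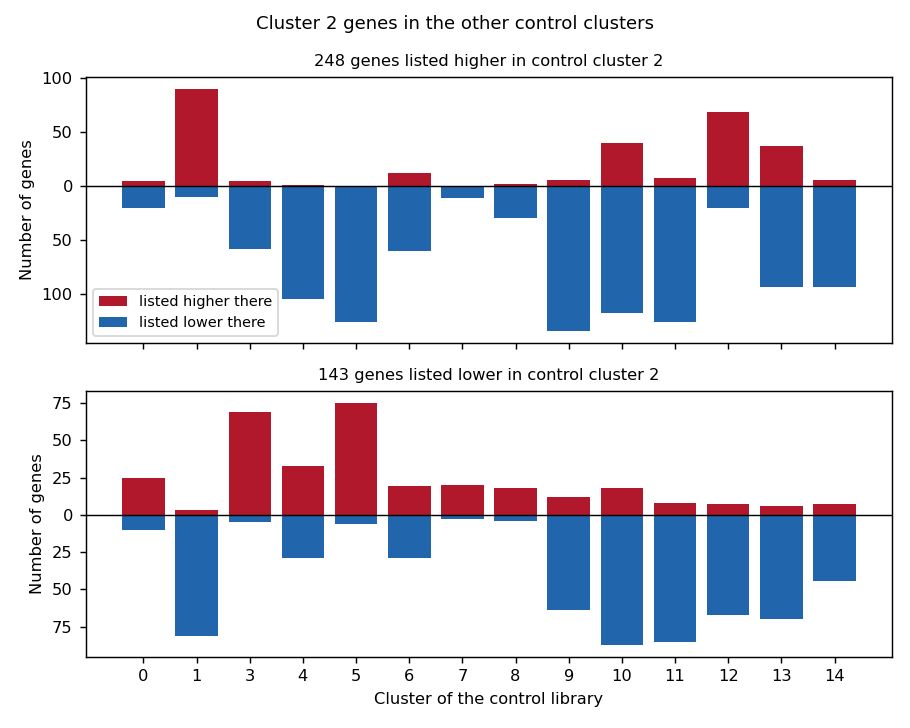
Number of cluster 2 genes (vertical axis) that each other control cluster lists as higher (red, upward) or lower (blue, downward), for the 248 genes listed higher in cluster 2 (top) and the 143 listed lower (bottom). Clusters 1 and 12 hold the tallest red bars in the top panel (90 and 69), and cluster 5 has 0 red genes there and the tallest red bar (75) in the bottom panel.

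The FGF2 library was clustered on its own, and its cluster numbers do not correspond to the control numbers. Of the higher members 213 (85.9%) and of the lower members 125 (87.4%) are listed for some FGF2 cluster, against 52.6% of all genes listed in the control table. The FGF2 cluster with the most higher members listed higher was its cluster 2, with 65 of 248 (26.2% of them, and 51.6% of its own 126 higher genes) against a background of 4.12%, and 12 as lower (background 3.47%). Their ratios there included 2.76 for Igfbp3, 2.67 for Lpl, 2.39 for Clu, 2.30 for Serping1, 2.19 for Ifitm1, 2.14 for Adamts1 and 2.12 for Maf. Grem1 (0.66), Mgp (0.51), Ccl2 (0.56) and S100a4 (0.58) went the other way in that cluster. Of the lower members of control cluster 2, 16 were lower in it as well (11.2%; background 3.47%) and 6 were higher (background 4.12%), among them Col3a1 (2.0) and Col1a2 (1.54). FGF2 cluster 5 lists 51 higher members as higher (background 5.79%), led by Sod2 (3.08), Stc1 (2.72) and Gpm6b (2.62), and 19 as lower (background 3.83%). FGF2 cluster 1 lists 18 higher members as higher (background 2.45%) and 8 as lower (background 2.26%). Of the lower members it lists 31 as lower (21.7%) and 0 as higher, against the same backgrounds. FGF2 cluster 4 lists 64 of the higher members lower (background 5.33%) and 61 of the lower members higher (background 6.44%). Acta2 (6.62), Tagln (6.57) and Thbs1 (4.06) led those 61 genes, and Clu (0.20), Dcn (0.21) and Lum (0.30) were the lowest of the 64. Cxcl13 is not listed for any FGF2 cluster, Saa3 is listed in the FGF2 table only for cluster 14, in 26.2% of its cells, and Ptn for 3 clusters.

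**Figure D5:**
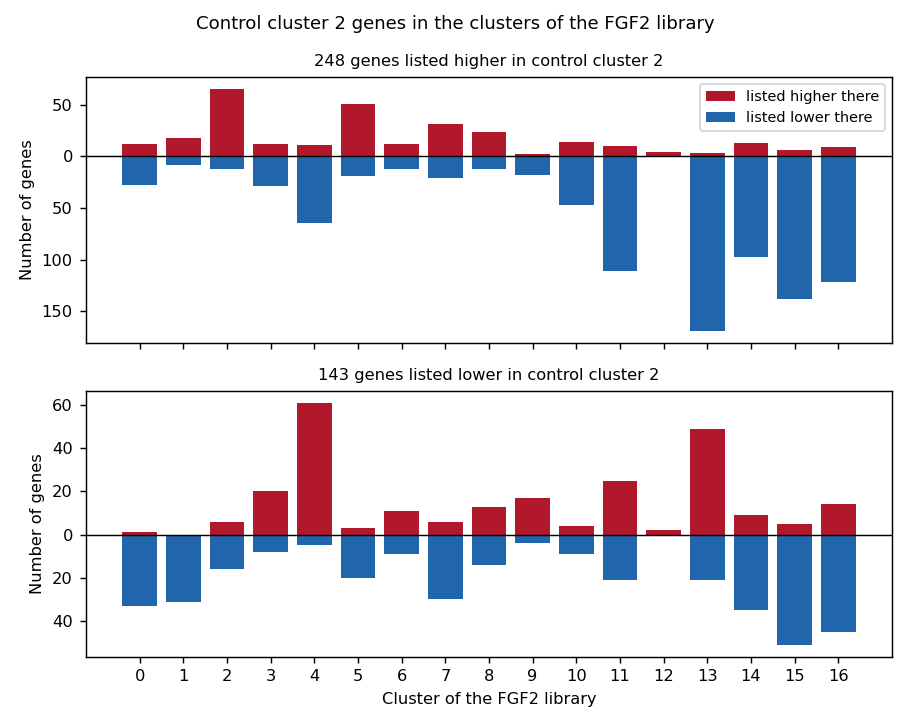
Number of control cluster 2 genes (vertical axis) that each cluster of the FGF2 library lists as higher (red, upward) or lower (blue, downward), for the 248 higher (top) and the 143 lower members (bottom). FGF2 clusters 2 and 5 have the tallest red bars in the top panel (65 and 51), and FGF2 cluster 4 has the tallest red bar in the bottom panel (61).

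Across whole libraries, shares of cells with a count could be set side by side for the members listed in both tables. Of the 213 higher members, 120 had a larger share in the FGF2 library and 93 a smaller one. Past 1.5-fold there were 27 up (12.7%) and 20 down (9.39%), against 7.58% up and 15.2% down of the 2323 genes listed in both. Of the 125 lower members 29 were larger and 96 smaller, with 0 past 1.5-fold up and 36 down (28.8%). The median log2 ratios were 0.04, -0.22 and, over all genes, -0.08. No share can exceed all of the cells, so genes found in most control cells had little or no room to rise 1.5-fold. The genes listed lower had a median share of 78.1% in the other control cells, against 63.75% for those listed higher. Counts past 1.5-fold up are therefore not like for like between these groups and all genes. The 2 libraries differ in cells captured and their depth is unknown, so the part of depth in these shares was not tested.

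Single members differed by much more than the medians. Clu was in 28.4% of all control cells and 82.2% of FGF2 cells, Nrn1, the neuritin gene, in 12.1% and 54.5%, and Ifitm1 in 23.8% and 55.8%. Sparcl1 (25.5% and 67.0%), Tm4sf1 (37.7% and 91.4%), Stc1 (26.2% and 62.0%), Sema6d (23.1% and 48.7%) and Dio2 (23.0% and 47.7%) complete the 8 largest ratios. Saa3 was in 57.5% and 8.81%, and it is the only higher member among the 8 smallest ratios. The other 7 were lower members, among them Lurap1l (49.3% and 7.14%), Cnn1 (40.7% and 7.78%), Nexn (51.6% and 10.8%), Pappa (68.1% and 14.0%) and Postn (71.0% and 17.3%). The 5 markers did not share a direction. Spp1 was in 91.3% of control and 100% of FGF2 cells, Grem1 in 35.2% and 71.2%, and Ptn in 57.4% and 27.2%. Every FGF2 cluster that lists Spp1 has it in 100% of its cells, so this share does not tell the FGF2 clusters apart. Acta2 was in 89.9% and 31.9%. In whole libraries, fewer cells that express a gene and less RNA per cell cannot be told apart.

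A further table of the authors holds clusters of both libraries after integration. Its values are batch-integrated, so their differences are not differences of expression, and it contains the same control cells, so it is no independent evidence. It lists 211 of the 391 members. Integrated cluster 7, with 4.28% of the cells, lists 57 higher members as higher (23.0% of them, and 50.9% of its own 112 higher genes; background 9.27%) and 5 as lower. Of the lower members it lists 29 as lower (background 10.5%) and 4 as higher. The integrated ratios there were 5.12 for Ifitm1, 4.21 for Lpl, 3.33 for Saa3, 2.95 for Cxcl5 and 2.53 for Serping1. The 5 listed lower were the marker Grem1 (0.67), Ccl7 (0.69), Stc1 (0.70), Tm4sf1 (0.54) and Hmga2 (0.41). The marker Spp1 is not listed for integrated cluster 7. Cxcl13 is listed for that cluster alone, in 27.2% of its cells. Acta2 (0.30) and Tagln (0.25) were among its lowest members.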

How the data were processed

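The authors deposited 3 tables of cluster comparisons, each cluster against the remaining cells, for the control library, the FGF2 library and both after integration. Per the file headers, the authors deposited a column of log ratios, the cluster's average over that of the other cells, read as natural log. The base was checked on 8 control genes with no positive cell in several clusters. The library average of each gene was solved from each such cluster. It varied by 0.00169% (median coefficient of variation) with the natural log, against 0.0488% with base 2. The shares of cells are fractions deposited by the authors and appear as percentages. Deposited p-values are left out, because cells are not replicates. Cell Ranger 4.0 and mm10 were used, per the submitters' processing notes; cell filters, doublet treatment, normalization and clustering were not given in the sources used here. No entry had a natural log ratio closer to 0 than 0.25.

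Least squares over 2077 control genes with entries in several clusters gave the part of the cells in each cluster (sum 100.04%, residual 0.0238 points), each gene's library-wide share and its relative level; the arithmetic was tested on simulated tables, with rounding as their only error. No difference was tested. The genes, the 33 gene lists, the 20 marker lists and the 3 added lists were chosen with earlier results of these data known. Named genes were the 5 markers, the 20 largest and 12 most negative ratios, up to 8 listed members per list, the 15 genes peaking in cluster 2 with the largest gap to the next cluster listed higher or, where there was none, to the library average, and the 8 largest and 8 smallest ratios between libraries. Some genes that the rule names are not reported here. Genes named for their pattern over other clusters were chosen after their values were seen. RefSeq symbols matched 382 of the 391 members. Python 3.11.15, numpy 2.4.6, pandas 2.3.3, scipy 1.17.1 and matplotlib 3.10.9 were used.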

Additional observations from a re-analysis of the deposited data

How the results depend on the processing

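No paired analysis was possible because each group has 1 library, and for the same reason no library could be left out. The counts of cluster 2 genes, 248 higher and 143 lower, became 20 and 16 past 2-fold. Past 1.5-fold, 97 and 55 became 34 and 22 when the log ratio was read as base 2, a reading that the check of the base does not favour. Counts shared with other clusters became smaller when 1.5-fold was required in both: 171 in the same direction in control cluster 1 became 63, 136 in control cluster 12 became 53, 201 opposite in control cluster 5 became 79, 81 in FGF2 cluster 2 became 23, 71 in FGF2 cluster 5 became 28, 125 opposite in FGF2 cluster 4 became 44 and 86 in integrated cluster 7 became 36. By the sign of the difference of shares, FGF2 cluster 4 had 65 opposite genes. These limits remove genes by their construction. Requiring an adjusted p-value under 0.05 left 248 and 143, and a larger share of at least 50% left 217 and 125. Of the 158 values not printed singly, 36 were within 1.5 times of the value reported and 122 moved by more, 118 of them downward. Depth per cell is unknown. Cells per cluster are estimated from captured cells, and how many passed the authors' filters is not given in the sources used here, so no counting interval is printed.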

Other observations

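The following lists were added after the values were seen. Of 17 imprinted genes listed for any control cluster, 7 were listed higher in control cluster 2 and none lower. Beside Peg3 (2.19) these were the retrotransposon-derived gene Peg10 (1.67), the antisense RNA gene Kcnq1ot1 (1.57), the zinc finger gene Zim1 (1.37), the noncoding RNA gene H19 (1.36), Gnas (1.29) and the cyclin-dependent kinase inhibitor gene Cdkn1c (1.28). Of 19 genes of amino acid stress and serine synthesis, 7 were lower and none higher. The stress factor gene Ddit3 was in 51.1% of the cells of cluster 2 against 77.2% of the others at a ratio of 0.63, and Trib3 in 17.3% against 57.2% at 0.70. Eif4ebp1 (0.70), the serine synthesis genes Phgdh (0.71) and Psph (0.76), and the tRNA synthetase genes Gars (0.74) and Lars2 (0.76) were the others. Of 10 retinoid genes 2 were higher and 2 lower. Cyp26b1, which degrades retinoic acid, and Rarres2 were higher, and Aldh1a2, which makes retinoic acid, was in 39.6% of cells against 55.9% at a ratio of 0.72. Dhrs3, which reduces retinaldehyde, was in 17.6% against 49.8% at 0.77.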
